A study of Mus musculus with 30 samples.

Results

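The 36 genes described here encode the protein-folding and secretory machinery of the endoplasmic reticulum (ER) and the unfolded protein response that adjusts it. They were picked from the 48440 genes of the count table by symbol, as a list of named genes, with earlier results of these data known. They fall into 15 chaperones and folding enzymes, 6 sensors and signalling genes, 9 genes of ER-associated degradation, and 6 genes of the translocon, signal peptide processing and export. All 36 passed the filter on low counts, which kept 16304 genes for testing.

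The ER folds the proteins that a cell secretes, and hepatocytes, which make albumin and most other plasma proteins, carry a large secretory load. Unfolded proteins in the ER draw the chaperone BiP (Hspa5) away from the sensors IRE1 (Ern1), PERK (Eif2ak3) and ATF6. IRE1 then splices the mRNA of the transcription factor XBP1, PERK phosphorylates the initiation factor eIF2α and so slows translation, and ATF6 is cut in the Golgi to release a transcription factor. The nuclear forms of ATF6 and XBP1 induce chaperones, translocon subunits and the degradation machinery that returns misfolded proteins to the cytosol for the proteasome. Splicing of Xbp1 and cleavage of ATF6 cannot be seen in counts per gene.

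Liver mRNA was sequenced from wild-type female C57BL/6J mice whose osmotic pumps were implanted at 8 weeks of age. Control pumps were filled with PBS, a salt buffer. The others held ACBP, a protein that binds acyl-CoA and is also called DBI, at 2.5 mg/mL (Rec-ACBP in the labels). Loss of appetite was then brought about by CRS after 48 hours or by the DNA-crosslinking drug cisplatin, CDDP, after 72 hours. The labels give CRS by its letters alone, and it is read here as restraint stress. The 6 groups of 5 libraries were PBS, CDDP and CRS, all with the PBS pump, and ACBP, CDDP+ACBP and CRS+ACBP, all with the ACBP pump. No food-restricted group is among them, and effects of CDDP or CRS and of reduced feeding cannot be told apart. Whether the libraries are from separate mice is not stated in the labels, and p-values therefore measure the spread between these libraries.

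Each library had between 13957380 and 18479134 reads on genes. The p53 target Cdkn1a, a check on the CDDP label, stood at 154 to 456 CPM, a read count scaled to library size, in CDDP libraries, 5.13 to 63.2 in CDDP+ACBP and 0.688 to 12.1 in the other groups. CDDP+ACBP replicate 4, at 5.13 CPM, lay within the range of the groups without CDDP, so Cdkn1a does not set that library apart. The other check gene, Aen, does: it stood at 16.06 CPM there and at 15.88 to 64.7 over the CDDP+ACBP libraries. It was at 47.8 to 80.1 CPM in CDDP and at 4.80 to 13.86 in the groups without CDDP. The 8 hepatocyte markers summed to 43200 to 147500 CPM. The lowest sum was in CDDP+ACBP replicate 3 and the highest in CDDP replicate 5, which also had the lowest sum of the 6 stellate cell markers, 63.6 CPM against at least 196 in the other CDDP libraries. The 10 skeletal muscle markers exceeded 1000 CPM, or the 7 brain markers 100 CPM, in 7 libraries spread over PBS, CRS, ACBP, CDDP+ACBP and CRS+ACBP. Exons of 11 of the 36 genes, among them Dnajb9, Pdia6, Manf, Eif2ak3 and Sec61a1, overlap those of another gene, and since the strand setting of the counting is not given in the sources used here, their counts are uncertain to that extent. Gene positions below are those of GENCODE on the mm10 build.

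In livers of the PBS group the summed level of the 36 genes was 0.415% of the TMM-scaled library size, and their levels per exon length spanned a wide range. On the scale of CPM per kilobase of exon (RPKM), P4hb, which encodes protein disulfide isomerase, had the highest mean at 264.6, followed by the lectin-like chaperone Calr at 160.5 and Herpud1 at 135.6. Xbp1, at 37.1 RPKM, led the sensors and signalling genes. Atf6 stood at 3.34, Eif2ak3 at 1.22 and Derl3, a derlin of the degradation channel known from highly secretory cells, at 0.866 RPKM. Of the 6 genes with the lowest levels, 4 were sensors and signalling genes, namely Ern1, Atf6, Wfs1 and Eif2ak3.

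The first comparison, CDDP against PBS under the PBS pump, asks what cisplatin changed in the liver. In it 25 of the 36 genes rose and none fell at an edgeR adjusted p under 0.05. Over all genes tested, 23.1% rose and 18.3% fell, 41.4% in either direction. The median log2 fold change was 0.97 over the 36 genes and 0.02 over all genes tested. The CDDP libraries lay wholly above the PBS libraries for 17 of the 36, against 13.3% of all genes. The summed level of the 36 genes was 4152 ± 409 CPM in PBS and 7702 ± 983 in CDDP (SD, n = 5 each).

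Among the chaperones and folding enzymes, 11 of 15 rose, with a median log2 fold change of 1.30 over the 15. BiP, the Hsp70 of the ER that holds the sensors inactive, is encoded by Hspa5 (ENSMUSG00000026864, chromosome 2, 34771970 to 34777547). Hspa5 read 171, 214, 143, 170.5 and 123 CPM in PBS and 747, 389, 667, 808 and 516 in CDDP. Each CDDP library lay above each PBS library, and the log2 fold change was 1.93 ± 0.38 (SE, edgeR adjusted p = 0.000195). Its J-domain co-chaperones rose too. Dnajb9 (ERdj4; ENSMUSG00000014905, chromosome 12, 44205559 to 44210326) read 10.1, 21.4, 15.3, 15.6 and 11.4 CPM in PBS and 44.4, 32.1, 58.3, 87.4 and 29.4 in CDDP, a log2 fold change of 1.77 ± 0.33. Dnajb11 (ERdj3), which BiP and its clients bind, read 35.1, 38.4, 40.99, 40.5 and 33.8 CPM in PBS and 129, 66.7, 90.6, 92.01 and 85.3 in CDDP (1.297 ± 0.22). Dnajc3 (p58IPK) read 67.5, 90.5, 92.2, 80.2 and 69.3 CPM in PBS and 202, 156, 208, 233 and 208 in CDDP (1.33 ± 0.23). For these J-domain genes too the lowest CDDP library was above the highest PBS library, and the edgeR adjusted p was at most 0.000112.

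Among disulfide isomerases and lectin chaperones, P4hb, Pdia6 and Canx rose, while Pdia3, Pdia4 and Calr did not pass the test. P4hb (ENSMUSG00000025130, chromosome 11, 120560298 to 120573253) read 662, 769.8, 910.3, 815 and 628 CPM in PBS and 1672, 2308, 1525, 1521 and 1813 in CDDP, a log2 fold change of 1.22 ± 0.20 (edgeR adjusted p = 2.28e-05). The membrane-bound lectin chaperone Canx read 60.5, 95.8, 94.8, 91.7 and 71.95 CPM in PBS and 223, 197, 235, 277 and 117 in CDDP (1.34 ± 0.27, adjusted p = 0.000244). Pdia6, an isomerase that also attenuates IRE1, read 67.2, 87.8, 102, 95.7 and 64.6 CPM in PBS and 290.5, 127, 211, 244 and 121 in CDDP (1.25 ± 0.28, adjusted p = 0.000945). In all of these genes the groups did not overlap, but CDDP replicates 2 and 5 were the lowest CDDP libraries for Pdia6 and replicate 5 the lowest for Canx. Calr, the soluble partner of Canx, was not called at 0.35 ± 0.27, with a 95% interval of -0.20 to 0.91. The ER Hsp90 gene Hsp90b1 (0.12, -0.24 to 0.48), Pdia3 (0.53, 0.02 to 1.04) and Pdia4 (0.78, 0.10 to 1.46) did not pass the test. A p above the threshold does not show that these genes were level: the interval of Pdia4 reaches 1.46, while that of Hsp90b1 ends at 0.48.

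The remaining chaperone-class genes all rose. The secreted folding factor Manf went from 44.5 ± 11.9 to 145 ± 80.02 CPM (SD, n = 5), a log2 fold change of 1.71 ± 0.44. Hyou1, the nucleotide exchange factor of BiP, changed by 1.45 ± 0.41, the chaperone complex component Sdf2l1 by 1.42 ± 0.39 and Creld2 by 1.27 ± 0.38, with edgeR adjusted p from 0.00265 to 0.00831 over these genes. CDDP libraries overlapped PBS for Sdf2l1, at 15.7 to 61.7 against 8.31 to 16.6 CPM, and for Creld2.

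Of the 6 sensors and signalling genes, 3 rose, with a median log2 fold change of 0.78. Atf6 (ENSMUSG00000026663, chromosome 1, 170704674 to 170867771) read 29.6, 32.3, 30.1, 33.6 and 28.3 CPM in PBS and 59.4, 57.2, 66.7, 80.4 and 69.1 in CDDP. All CDDP libraries were well above all PBS libraries, which were nearly level, and the change of 1.11 ± 0.14 had the smallest p of the 36 genes (edgeR adjusted p = 1.85e-06). Xbp1 (ENSMUSG00000020484, chromosome 11, 5520659 to 5525893), a target of ATF6 as well as the substrate of IRE1, read 103, 130.4, 125, 142 and 101 CPM in PBS and 316, 150.3, 239.7, 262 and 352 in CDDP. Its groups did not overlap either, though CDDP replicate 2 was close to PBS, and it changed by 1.13 ± 0.24 (adjusted p = 0.000533). The PERK gene Eif2ak3 read 5.02, 7.04, 8.85, 7.21 and 8.56 CPM in PBS and 13.9, 19.9, 19.1, 29.6 and 9.04 in CDDP (1.32 ± 0.30, adjusted p = 0.000859), with CDDP replicate 5 just above the PBS libraries. The IRE1 gene Ern1 did not pass the test, at -0.02 with a 95% interval of -0.56 to 0.51. Ppp1r15b, which encodes the constitutive partner of the eIF2α phosphatase, was at -0.07 (-0.36 to 0.22) and the ER membrane protein gene Wfs1 at 0.46 (-0.15 to 1.06).

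In ER-associated degradation 5 of 9 genes rose, with a median log2 fold change of 0.63. The mannosidase-like gene Edem2 (ENSMUSG00000038312, chromosome 2, 155701677 to 155729475), which marks glycoproteins for disposal, read 50.4, 44.1, 44.98, 52 and 52.9 CPM in PBS and 91.1, 67.6, 88.3, 85.9 and 74.1 in CDDP (0.74 ± 0.12, edgeR adjusted p = 2.77e-05). Derl1 (ENSMUSG00000022365, chromosome 15, 57869502 to 57892448), a derlin of the retrotranslocation channel, read 70.99, 85.05, 88.2, 84.7 and 69.8 CPM in PBS and 162, 178, 150.1, 149 and 126 in CDDP (0.94 ± 0.16, adjusted p = 4.44e-05). For both genes the CDDP and PBS libraries were fully apart. Edem1 read 79.4, 79, 75.7, 87.8 and 87.3 CPM in PBS and 180.4, 69.2, 182, 168 and 112 in CDDP (0.80 ± 0.18), where CDDP replicate 2 lay below every PBS library. Os9, a lectin that delivers glycoproteins to the ubiquitin ligase, read 197, 227, 234, 219 and 199.9 CPM in PBS and 311, 343, 310.2, 276 and 427 in CDDP (0.63 ± 0.16), with no overlap.

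Herpud1, an adaptor of the ligase complex, was called with 1 library far above the rest. It read 219, 348, 357, 289 and 368 CPM in PBS and 316, 288, 451, 373 and 1146 in CDDP, and the other CDDP libraries overlapped PBS. Its log2 fold change of 0.70 ± 0.27 (edgeR adjusted p = 0.0382) was 0.18 without CDDP replicate 5, where the adjusted p was 0.508, and the call was also lost without PBS replicate 1 or 4. Genes of the ligase core were not called: Syvn1, the ligase HRD1, was at 0.02 (-0.58 to 0.62) and its partner Sel1l at 0.12 (-0.19 to 0.42). Derl2 stood at 0.05 (-0.26 to 0.36), and Derl3 is described with the ACBP pump below.

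All 6 genes of the translocon, signal peptide processing and export subgroup rose, with a median log2 fold change of 1.001. Sec61a1 (ENSMUSG00000030082, chromosome 6, 88503579 to 88518905), the channel through which new proteins enter the ER, read 93, 118, 123, 127 and 96.1 CPM in PBS and 342, 241, 299, 286 and 199 in CDDP. The lowest CDDP library, replicate 5, was above the highest PBS library, and the change was 1.296 ± 0.18 (edgeR adjusted p = 2.98e-06). Ssr3, a translocon-associated subunit, read 122, 106, 120.0, 122 and 102 CPM in PBS and 238, 189, 229.7, 272 and 91.9 in CDDP (0.84 ± 0.20, adjusted p = 0.00164). The signal peptidase subunit Spcs2 read 54.4, 63.2, 55.1, 50.95 and 46.5 CPM in PBS and 143, 72.5, 126, 133 and 64.2 in CDDP (0.996 ± 0.25, adjusted p = 0.002). CDDP replicate 5 fell below every PBS library for Ssr3 and stayed just above them for Spcs2, and it had the lowest level of its group for all 6 genes of this subgroup. The channel subunit Sec61b read 47.01, 55.3, 69.8, 61.5 and 43.3 CPM in PBS and 166, 88.4, 137, 130.2 and 42.8 in CDDP (1.03 ± 0.30), and the COPII coat gene Sec24d read 29.3, 27.3, 28.7, 24.03 and 22.7 and 59.95, 61.5, 53.2, 62.1 and 28.2 (1.01 ± 0.26). Replicate 5 of CDDP fell within or below the range of PBS for both, and the other CDDP libraries lay above it. Ssr1 changed by 0.61 ± 0.20, also with overlap. The call for Ssr1 was lost without CDDP replicate 1 (adjusted p = 0.0555).

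**Figure D1:**
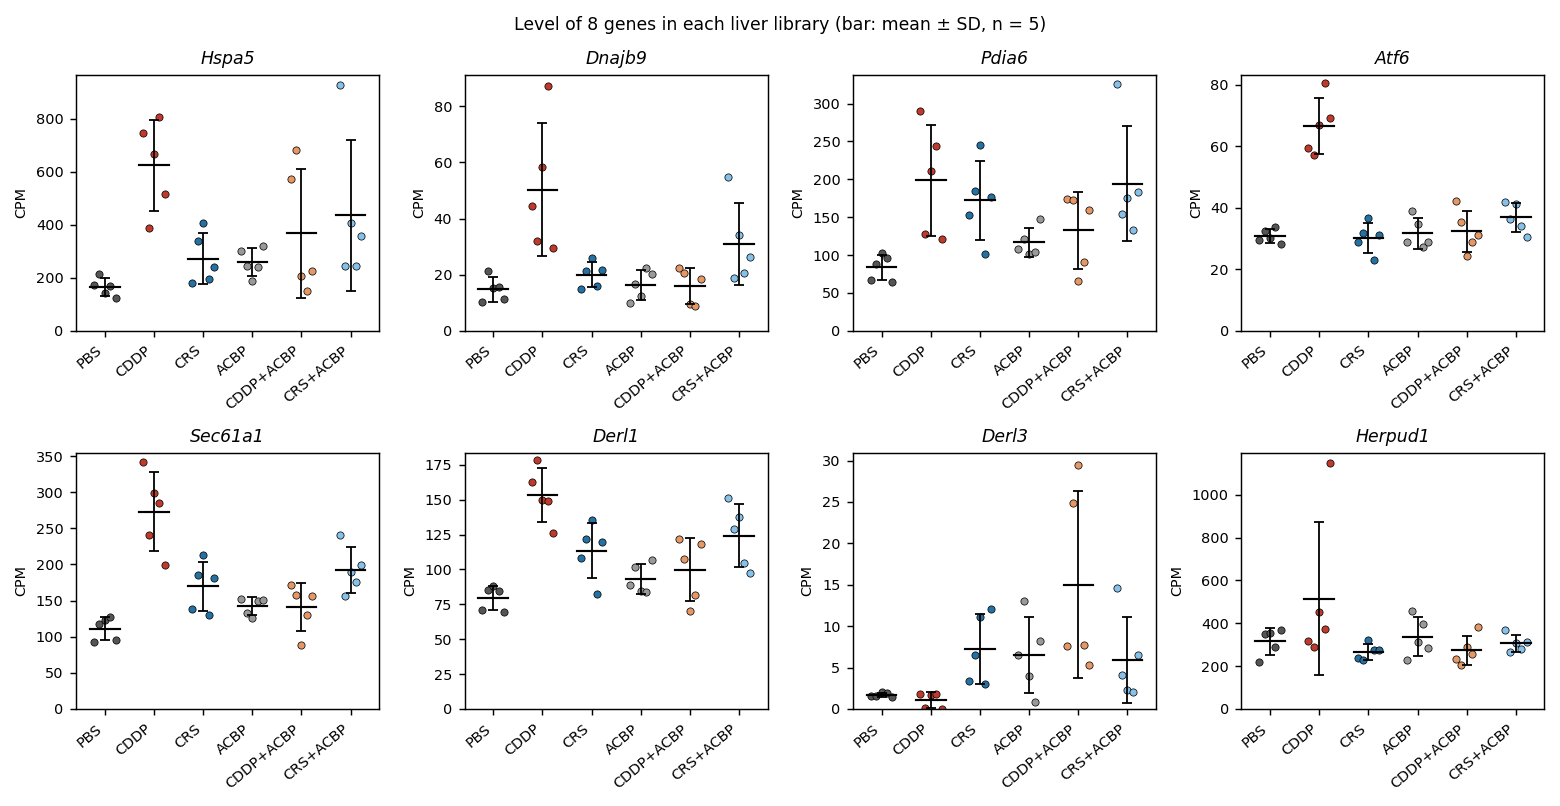
Level of 8 of the genes in CPM (y axis, linear from 0) in each library of the 6 groups (x axis), with bars at the mean ± SD of 5 libraries. Atf6 lies at 57.2 to 80.4 CPM in CDDP and at 42.1 CPM or less in every other library, Herpud1 has 1 CDDP library at 1146 CPM, and Derl3 is highest in CDDP+ACBP.

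Markers of other liver cells also differed between these groups. The 7 Kupffer cell and macrophage markers summed to 122 to 182 CPM in CDDP against 246 to 292 in PBS, and the 6 stellate cell markers to 63.6 to 258 against 320 to 399. By edgeR, 5 of the 7 Kupffer cell and macrophage markers were called lower and 1 higher, at a log2 fold change of 2.87. Of the 6 sinusoidal endothelium markers in the table, 3 were called lower and 1 higher, at 3.78. Over all genes tested, 18.3% were lower and 23.1% higher. The 10 plasma and B cell markers summed to 1.56 to 11.1 CPM in CDDP, with 1 to 6 of them at 0, against 21.8 to 30.4 in PBS. The 6 neutrophil markers were at 8.75 to 33.9 against 6.39 to 8.49 CPM, and hepatocyte markers at 76300 to 147500 against 71950 to 99240. By edgeR, 4 of the 8 hepatocyte markers were called higher and 1 lower. Their mean log2 of CPM plus 1 was 11.659 to 12.632 in CDDP, wholly above PBS at 11.486 to 11.646. The share of the table's reads that fell on genes was 39.4 to 42.55% in CDDP, wholly above PBS at 36.26 to 38.25% and CDDP+ACBP at 36.3 to 38.63%. In bulk tissue fewer cells of a type and less RNA per cell cannot be told apart, and the part of these shifts in the results was not tested. Of the 25 calls, 23 were kept in each of the 10 fits that left out 1 library of CDDP or PBS.

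The ER stress response element (ERSE) in gene promoters is the best-known binding site of ATF6, together with the factor NF-Y. Windows of the 250 bases before the RefSeq start on build GRCm38.p6, which exist here for 30 of the 36 genes, were searched on both strands. The motifs were ERSE (CCAAT, any 9 bases, then CCACG), ERSE-II (ATTGG, any 1 base, then CCACG) and the shorter UPRE (TGACGTGG), a site of XBP1 and ATF6. The exact ERSE was found for 9 genes, Calr, Canx, Creld2, Derl3, Dnajc3, Hsp90b1, Hspa5, Pdia6 and Syvn1, against 0.113% of 32851 windows of the same length over all genes. ERSE-II was found for Herpud1 alone, against 0.03% of windows, and UPRE for Sec24d alone, against 0.563%. No match in these genes overlapped another. Of the 9 genes with an ERSE, 5 rose in CDDP, with a median log2 fold change of 1.25, and of the 21 with a window and no ERSE, 15 rose, with a median of 0.80. An exact match is only a description of these letters and says nothing of binding in these livers.

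The sequences below are those of the 4 ERSE genes with the smallest p in CDDP against PBS, followed by the pair with the smallest p among genes whose window holds no match, so that a promoter with the element can be read beside one without it. They are written 5′ to 3′ on the strand of the gene, and capitals mark the fixed letters of the ERSE. They lie at chr14:118937682-118937931 (Dnajc3, plus strand), chr2:34772020-34772048 (Hspa5, plus), chr11:50325674-50325923 (Canx, minus), chr12:17266339-17266544 (Pdia6, plus), chr11:120573254-120573503 (P4hb, minus) and chr2:155729476-155729725 (Edem2, minus). The Hspa5 match lies in a GENCODE exon of the gene and is shown with 5 bases on each side, and the Pdia6 run ends before a GENCODE exon of that gene.
Dnajc3: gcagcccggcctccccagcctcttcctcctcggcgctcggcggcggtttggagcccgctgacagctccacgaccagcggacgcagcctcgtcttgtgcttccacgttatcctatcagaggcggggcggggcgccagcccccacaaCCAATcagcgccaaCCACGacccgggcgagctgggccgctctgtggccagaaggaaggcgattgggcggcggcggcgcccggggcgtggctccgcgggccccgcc
Hspa5: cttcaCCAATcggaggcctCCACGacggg
Canx: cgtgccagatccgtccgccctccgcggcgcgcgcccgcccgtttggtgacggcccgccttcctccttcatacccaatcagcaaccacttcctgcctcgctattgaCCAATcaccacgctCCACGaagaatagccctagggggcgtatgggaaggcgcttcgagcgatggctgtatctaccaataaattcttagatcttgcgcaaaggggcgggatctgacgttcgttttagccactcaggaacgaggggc
Pdia6: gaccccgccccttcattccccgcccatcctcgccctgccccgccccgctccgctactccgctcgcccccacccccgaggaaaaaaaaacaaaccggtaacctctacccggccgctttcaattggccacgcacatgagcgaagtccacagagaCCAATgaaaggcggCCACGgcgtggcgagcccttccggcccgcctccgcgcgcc
P4hb: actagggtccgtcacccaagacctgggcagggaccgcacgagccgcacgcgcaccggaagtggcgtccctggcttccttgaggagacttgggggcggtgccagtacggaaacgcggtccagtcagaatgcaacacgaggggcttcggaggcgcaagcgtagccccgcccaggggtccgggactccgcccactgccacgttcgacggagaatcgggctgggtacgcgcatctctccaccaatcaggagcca
Edem2: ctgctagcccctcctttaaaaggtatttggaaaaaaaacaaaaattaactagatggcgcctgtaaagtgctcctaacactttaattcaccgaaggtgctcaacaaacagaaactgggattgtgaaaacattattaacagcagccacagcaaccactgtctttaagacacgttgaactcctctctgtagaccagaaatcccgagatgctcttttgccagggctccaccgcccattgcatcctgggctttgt
P4hb and Edem2, whose windows hold no match, changed by 1.22 and 0.74 in CDDP against PBS. The genes shown were picked by their p in that comparison, so their changes cannot be set against the presence of the element. Hsp90b1, not shown here, has 2 matches in its window, and Hspa5 has 1.

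Under the ACBP pump the same drug gave no call among the 36 genes. CDDP+ACBP against ACBP had 0 called by edgeR, 1 at an unadjusted p under 0.05 (Creld2; 4.85% of all genes) and 0 by DESeq2, with 0.129% of all genes called. The median log2 fold change over the 36 was 0.11. Direct comparison of CDDP+ACBP with CDDP, which shares the CDDP libraries with the comparison above, had 17 genes lower and 1 higher, against 18.8% and 14.9% of all genes (33.8% in either direction). CDDP+ACBP libraries lay wholly below CDDP for 7 genes, against 8.09% of all genes. The interaction, which tests whether the change with CDDP differed between the pumps, was lower for 14 genes and higher for none, against 11.3% and 8.38% of all genes, 19.7% in either direction.

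**Figure D2:**
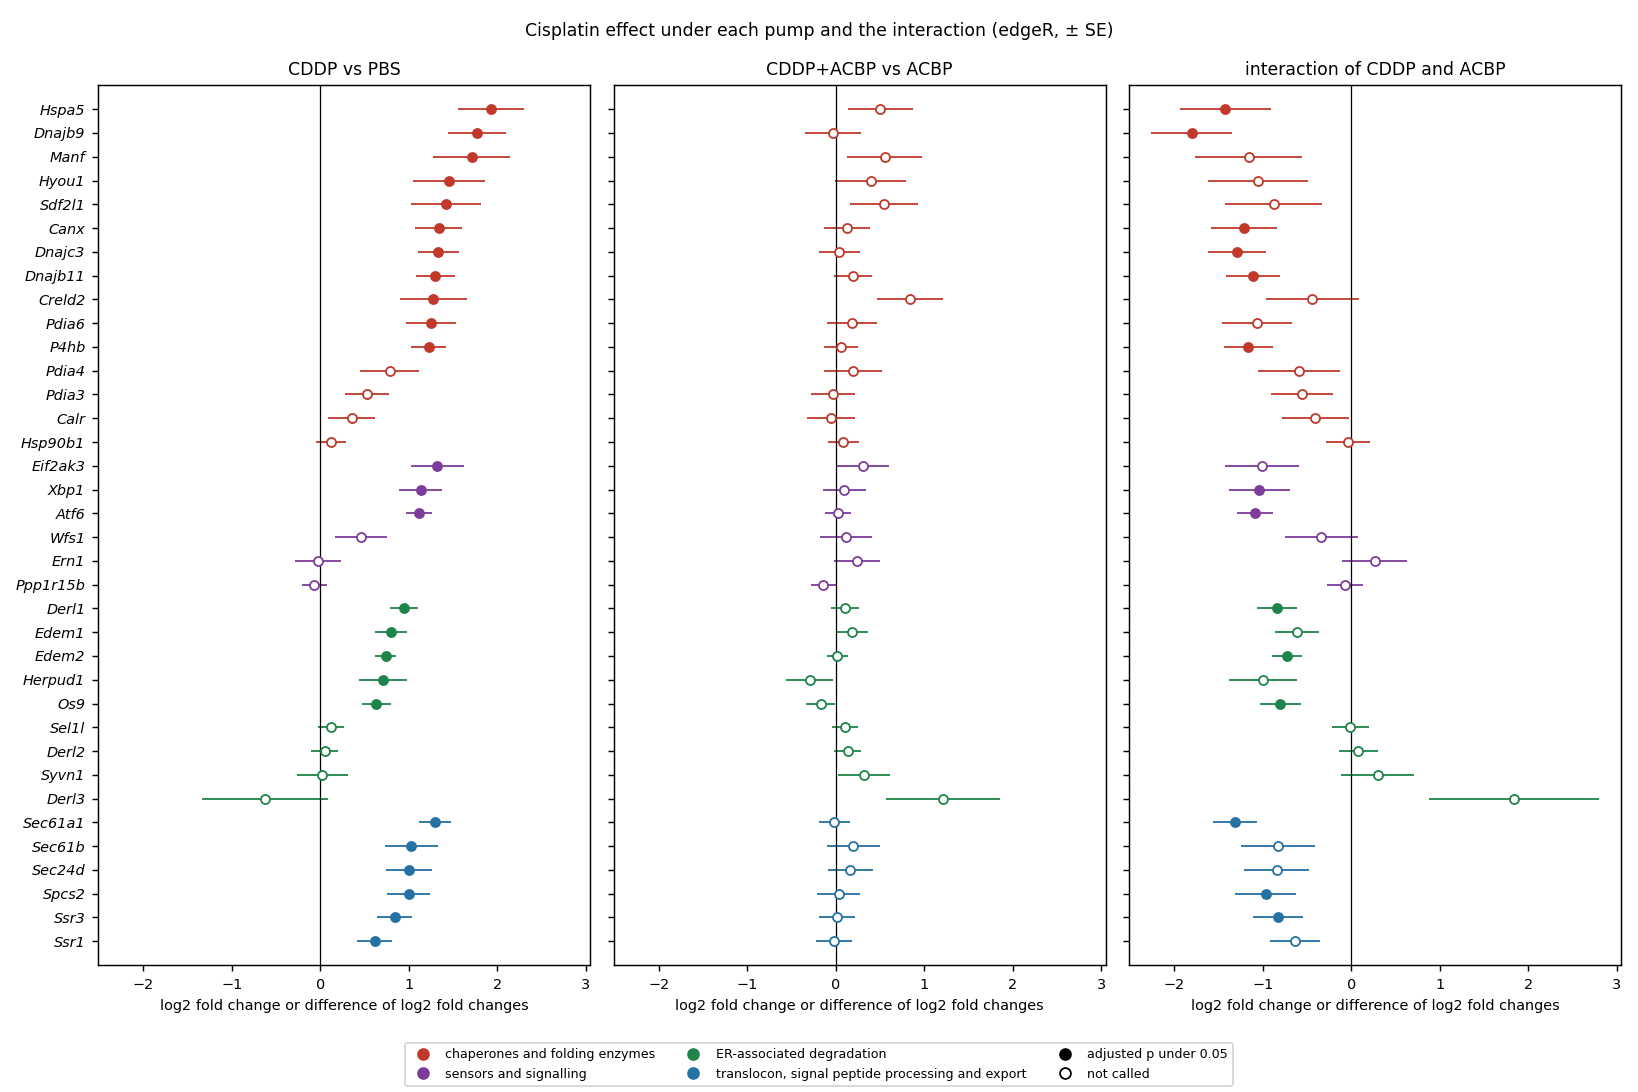
Log2 fold change ± SE of each of the 36 genes with CDDP under the PBS pump (left), under the ACBP pump (middle) and their difference, the interaction (right), from edgeR. Filled points passed an adjusted p of 0.05: 25 on the left, 0 in the middle and 14 on the right, all of the last below 0.

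By subgroup, the interaction was called for 6 of 15 chaperones and folding enzymes, 2 of 6 sensors and signalling genes, 3 of 9 genes of ER-associated degradation and 3 of 6 genes of the translocon subgroup. Atf6 read 28.7, 39, 34.7, 27.1 and 28.9 CPM in ACBP and 42.1, 35.3, 24.2, 28.9 and 31.1 in CDDP+ACBP, which overlapped each other and lay wholly below CDDP. Its interaction was -1.08 ± 0.20 (edgeR adjusted p = 0.000796), with a change of 0.03 under the ACBP pump (95% interval -0.27 to 0.33). Sec61a1 read 153, 133, 126, 149 and 151 CPM in ACBP and 172, 158, 87.9, 129.7 and 156 in CDDP+ACBP, with an interaction of -1.31 ± 0.25 (adjusted p = 0.000803). All CDDP+ACBP libraries were below all CDDP libraries for Sec61a1 too. Xbp1, the other sensor gene called, read 113, 84.7, 124, 149 and 158 CPM in ACBP and 166, 134, 134, 139 and 99.05 in CDDP+ACBP, with an interaction of -1.04 ± 0.34 (adjusted p = 0.0312). CDDP replicate 2, at 150.3 CPM, overlapped CDDP+ACBP for Xbp1.

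Among chaperones, Dnajb9 had the largest interaction. It read 9.84, 16.7, 12.3, 22.5 and 20.4 CPM in ACBP and 22.5, 20.5, 9.62, 8.83 and 18.5 in CDDP+ACBP, an interaction of -1.804 ± 0.46 (edgeR adjusted p = 0.0068). Levels of Dnajb9 in CDDP+ACBP overlapped ACBP and lay wholly below CDDP. Dnajc3 read 79.4, 127, 88.3, 79.99 and 108 CPM in ACBP and 127, 114, 44.4, 95.6 and 116 in CDDP+ACBP (-1.29 ± 0.33, adjusted p = 0.00671). P4hb read 900.2, 881, 788, 756 and 953 CPM in ACBP and 1065, 1033, 522, 670.4 and 1168 in CDDP+ACBP (-1.16 ± 0.28, adjusted p = 0.00443). In both, replicate 3 of CDDP+ACBP, the library with the lowest hepatocyte markers, was the lowest of the 30. Canx read 81.8, 119, 93.7, 91.9 and 135 CPM in ACBP and 150.4, 136, 65.5, 75.5 and 142 in CDDP+ACBP (-1.21 ± 0.37), and Dnajb11 read 48.6, 59.04, 43.4, 47.5 and 70.4 and 83.4, 76.2, 41.7, 47.4 and 58.7 (-1.105 ± 0.30).

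For Hspa5 the CDDP+ACBP libraries were divided. It read 301, 245, 189.6, 241 and 319 CPM in ACBP and 572, 684, 208, 150.2 and 224 in CDDP+ACBP. Replicates 1 and 2 of CDDP+ACBP lay within the range of CDDP and the other libraries below it, so the groups overlapped. CDDP+ACBP against CDDP was not called (-0.77 ± 0.36, edgeR adjusted p = 0.103), while the interaction was, at -1.43 ± 0.51 (adjusted p = 0.0493). That call was kept in only 6 of 20 fits without 1 library, those without PBS replicate 2, CDDP replicate 2 or 5, ACBP replicate 3, or CDDP+ACBP replicate 1 or 2, and its adjusted p reached 0.0932. Manf showed the same split, with replicates 1 and 2 of CDDP+ACBP at 185 and 203 CPM and the others at 45.7 to 67.1, and its interaction of -1.16 ± 0.60 was not called. Pdia6, Hyou1, Sdf2l1 and Creld2 were not called in CDDP+ACBP against CDDP or in the interaction. For Creld2 the difference from CDDP was 0.23, with a 95% interval of -0.54 to 0.99.

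In ER-associated degradation, Edem2 read 59.7, 62.2, 54.7, 55.9 and 63.6 CPM in ACBP and 64.99, 57.05, 54.9, 59.3 and 62.7 in CDDP+ACBP, with an interaction of -0.72 ± 0.17 (edgeR adjusted p = 0.0042). Derl1 read 88.7, 102, 84.7, 83.9 and 107 CPM in ACBP and 122, 107, 70.4, 81.8 and 118 in CDDP+ACBP (-0.84 ± 0.23, adjusted p = 0.0102). CDDP+ACBP lay wholly below CDDP in both. Os9 read 243, 266, 282, 253 and 259 CPM in ACBP and 263, 241, 132, 220.0 and 300.2 in CDDP+ACBP (-0.80 ± 0.23, adjusted p = 0.0154), again lowest in replicate 3. Herpud1 was at 207 to 383 CPM in CDDP+ACBP, a difference from CDDP of -0.91 ± 0.27 that was not called without CDDP replicate 5 (-0.38, adjusted p = 0.143).

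In the translocon subgroup, Ssr3 read 130.3, 135, 132, 121 and 132 CPM in ACBP and 160.3, 133, 83.8, 131 and 149 in CDDP+ACBP, with an interaction of -0.83 ± 0.28 (edgeR adjusted p = 0.0396). Spcs2 read 73.6, 72.8, 53.8, 53.8 and 69.1 CPM in ACBP and 93.2, 88.2, 36.04, 41.97 and 70.8 in CDDP+ACBP (-0.96 ± 0.35, adjusted p = 0.0476). Both overlapped CDDP, through CDDP replicate 5 for Ssr3 and replicates 2 and 5 for Spcs2. Their interaction calls were kept in 7 of 20 fits each, with an adjusted p of up to 0.0831 and 0.0962. For Ssr3 those were the fits without PBS replicate 3 or 4, CDDP replicate 2 or 5, ACBP replicate 4, or CDDP+ACBP replicate 1 or 5. For Spcs2 they were those without PBS replicate 2, CDDP replicate 2 or 5, ACBP replicate 3 or 4, or CDDP+ACBP replicate 1 or 2.

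The Xbp1 interaction was kept in 14 of 20 such fits and lost without PBS replicate 1 or 5, CDDP replicate 5, ACBP replicate 4 or 5, or CDDP+ACBP replicate 5, where its adjusted p reached 0.065. The other 10 interaction calls, of Atf6, Sec61a1, Edem2, P4hb, Dnajc3, Dnajb9, Derl1, Dnajb11, Os9 and Canx, were kept in all 20. In a fit of CDDP+ACBP and CDDP alone, 6 genes were lower and 1 higher in place of 17 and 1, and 15% of all genes were called. Leaving out 1 library in that comparison gave 13 to 19 called. Calls were lost in some of these 10 fits for Dnajb11 (kept in 6), Eif2ak3 (9), Herpud1 (9), Edem1 (3), Ssr3 (8), Spcs2 (5) and Sec24d (3), with an adjusted p of up to 0.143. The largest single groups of losses came without CDDP replicate 4, which ended the calls of Eif2ak3, Edem1, Ssr3, Spcs2 and Sec24d, and without CDDP+ACBP replicate 3, which ended those of Dnajb11, Edem1, Ssr3, Spcs2 and Sec24d. Markers of plasma and B cells summed to 13.5 to 40.2 CPM and those of stellate cells to 288 to 413 in CDDP+ACBP, both wholly above CDDP, while those of Kupffer cells and macrophages, at 144 to 201, overlapped CDDP. Of the 8 hepatocyte markers, 3 were called lower than in CDDP and 1 higher, against 18.8% and 14.9% of all genes. The interaction was lower for 3 of them and higher for 1, against 11.3% and 8.38%. The part of these marker shifts in the results was not tested.

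**Figure D3:**
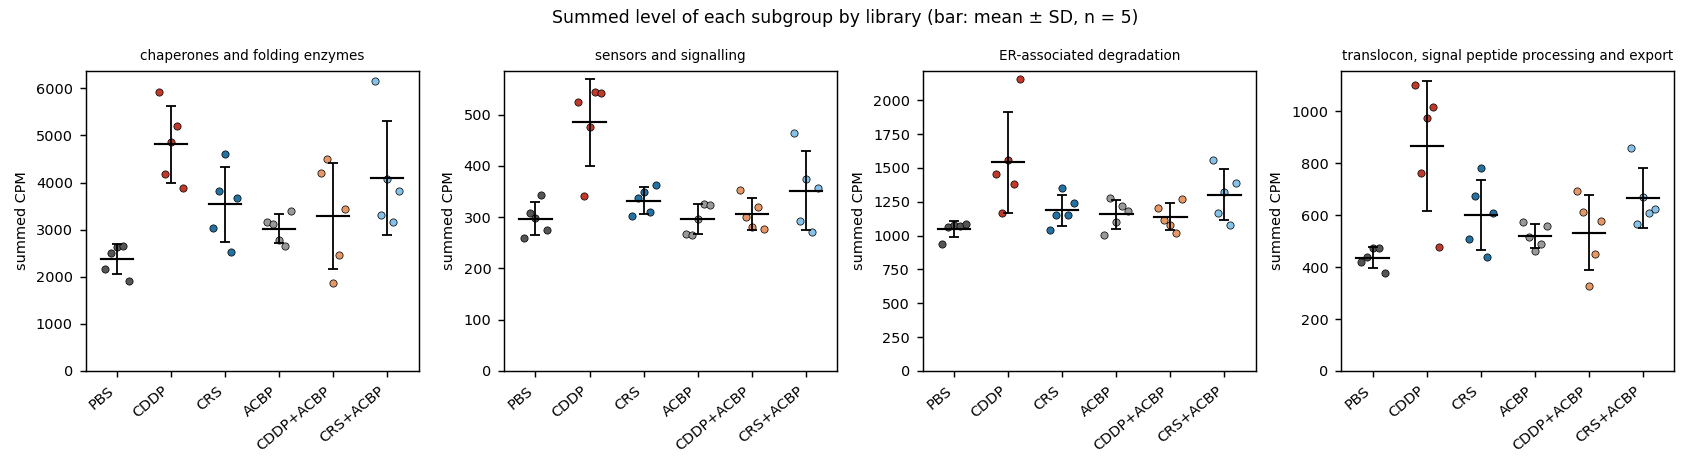
Summed CPM of each subgroup (y axis, linear from 0) in each library of the 6 groups (x axis), with bars at the mean ± SD of 5 libraries. The chaperones and folding enzymes sum to 4808 ± 811 CPM in CDDP against 2371 ± 322 in PBS and 3291 ± 1120 in CDDP+ACBP, and a single CRS+ACBP library stands at 6160.

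Derl3 (ENSMUSG00000009092, chromosome 10, 75893413 to 75895941) was the only one of the 36 genes called higher in CDDP+ACBP than in CDDP. It read 1.61, 1.51, 2.09, 1.91 and 1.5 CPM in PBS and 1.76, 0.167, 1.65, 1.86 and 0 in CDDP, from 0 to 37 reads, where a count of 0 allows a level of up to 0.242 CPM in that library. It read 6.56, 13, 3.94, 0.785 and 8.17 CPM in ACBP and 7.604, 24.9, 29.5, 7.69 and 5.32 in CDDP+ACBP. Every CDDP+ACBP library lay above every CDDP library, as for 6.02% of all genes, with a log2 difference of 3.74 ± 0.73 (edgeR adjusted p = 0.00032). CDDP against PBS was not called (-0.62 ± 0.71), nor was the interaction (1.83 ± 0.96, adjusted p = 0.176). Derl3 read 3.403, 6.501, 11.1, 3.05 and 12.1 CPM in CRS and 14.6, 4.11, 2.25, 2.04 and 6.58 in CRS+ACBP. Plasma and B cell markers, which sum to 1.56 to 11.1 CPM in CDDP and 13.5 to 40.2 in CDDP+ACBP, moved with it between these groups, but not in CRS, where they were at 11.97 to 17.2 against 21.8 to 30.4 in PBS. The part of such cells in the Derl3 difference was not tested.

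CRS against PBS asks what restraint changed, and no single gene of the 36 passed there. EdgeR called 0 of them (0.141% of all genes called), and 15 had an unadjusted p under 0.05, against 8.97% of all genes. DESeq2 called 1 of the 36 and 0.514% of all genes, and limma voom 10 of the 36 and 5.7% of all genes. The log2 fold change was positive for 32 of the 36, against 50.2% of all genes, with a median of 0.43 against 0.00 over all genes. CRS libraries lay wholly above PBS for 6 genes, Dnajb11, Sdf2l1, Os9, Edem1, Derl3 and Sec61a1, against 2.26% of all genes. Under the ACBP pump, CRS+ACBP against ACBP had 0 called (0% of all genes), 8 at an unadjusted p under 0.05 (7.32% of all genes), and 0 by DESeq2 and by limma voom, with a median of 0.34. There the libraries of P4hb, Edem1 and Sec61a1 did not overlap, against 0.718% of all genes.

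Averaged over both pumps, CRS raised 3 genes, against 0.417% of all genes higher and 0.687% in either direction. The median log2 change was 0.40, 34 of 36 were positive, against 50.2% of all genes, and 24 had an unadjusted p under 0.05, against 15.4% of all genes. Pdia6 read 153, 185, 246, 101 and 176 CPM in CRS and 325, 154, 175, 133 and 183 in CRS+ACBP, against 108, 122, 101, 104 and 148 in ACBP and the PBS values above. It changed by 0.89 ± 0.20 (edgeR adjusted p = 0.0312), with CRS replicate 4 inside the range of PBS. Sec61a1 read 138, 185, 213, 131 and 181 CPM in CRS and 241, 156, 189, 176 and 199.6 in CRS+ACBP, with every CRS library above PBS and every CRS+ACBP library above ACBP, a change of 0.52 ± 0.12 (adjusted p = 0.0402). Derl1 read 108, 122, 136, 82.6 and 119.5 CPM in CRS and 152, 129, 137, 104 and 97.7 in CRS+ACBP (0.46 ± 0.11, adjusted p = 0.0471), and overlapped PBS and ACBP. P4hb read 976, 1281, 1421, 789 and 1211 CPM in CRS and 1470.0, 1122, 1105, 1040.0 and 994 in CRS+ACBP but was not called (0.50 ± 0.14, adjusted p = 0.0821).

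Without 1 library, 0 to 4 genes were called, and none of the 3 was kept in all 20 fits. Pdia6 was kept in 12 of them (adjusted p up to 0.079), being lost without PBS replicate 1 or 5, CRS replicate 2, 3 or 5, ACBP replicate 3 or 4, or CRS+ACBP replicate 1. Sec61a1 was kept in 9 (up to 0.1), those without PBS replicate 2, 3 or 4, CRS replicate 1 or 4, ACBP replicate 1 or 5, or CRS+ACBP replicate 2 or 4. Derl1 was kept in 4 (up to 0.113), those without CRS replicate 4, ACBP replicate 5, or CRS+ACBP replicate 4 or 5. Other fits gave 6 calls with DESeq2 (2.27% of all genes called), 19 with limma voom (12.4%) and 11 with the 4 groups alone (5.83%). There was 1 call with no filter on low counts (0.305% of all genes) and 0 without the 7 libraries rich in muscle or brain transcripts (0.181%). The direction was positive for Pdia6, Sec61a1 and Derl1 in all of them.

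By subgroup the averaged change had a median of 0.54 for the chaperones and folding enzymes, all 15 positive, and of 0.33 for the translocon subgroup, all 6 positive. It was 0.28 for ER-associated degradation and 0.20 for the sensors and signalling genes. Atf6 stood at 0.10 (95% interval -0.11 to 0.31), Ppp1r15b at -0.01 (-0.21 to 0.20) and Herpud1 at -0.19 (-0.58 to 0.20). The interaction of CRS and ACBP had 0 called by edgeR (0% of all genes). It had 1 at an unadjusted p under 0.05 (2.38% of all genes), Derl3 at -2.19 ± 0.94 (adjusted p = 1). DESeq2 and limma voom called 0. Pancreatic acinar markers, low in all groups, summed to 12.8 to 29.6 CPM in CRS (5 to 6 of 10 at 0) and 19.1 to 37.7 in CRS+ACBP (5 to 9 at 0), against 5.56 to 13.6 in PBS and 7.79 to 14.5 in ACBP. Only 2 of these 10 markers were tested. In the averaged comparison 1 was called higher, at a log2 change of 1.26, and the other stood at -0.28 and was not called. The 6 sinusoidal endothelium markers in the table summed to 99.2 to 119 CPM in CRS, wholly below PBS at 123.6 to 154.7, and to 87.2 to 120.9 in CRS+ACBP, which overlapped ACBP at 94.1 to 149.5. In the averaged comparison 6 of 6 endothelial and 9 of 9 tested plasma and B cell markers had a negative log2 change, with medians of -0.27 and -0.51 and 0 called. The part of these shifts in the results with CRS was not tested.

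**Figure D4:**
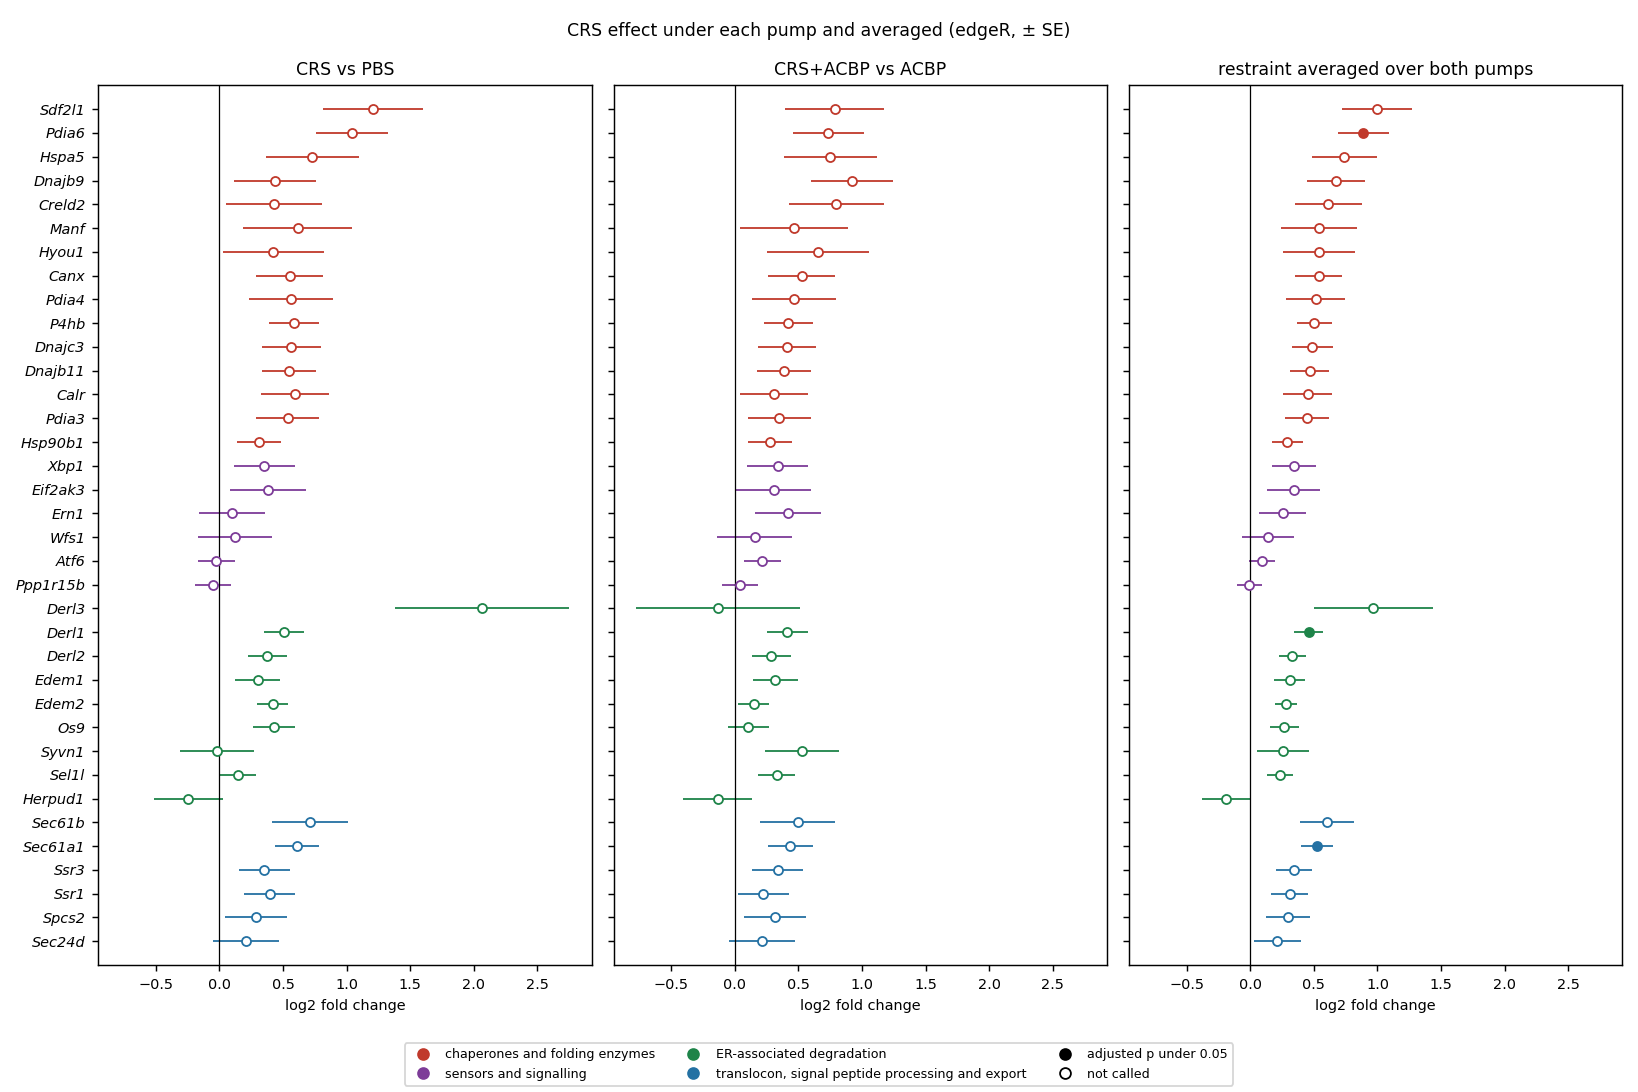
Log2 fold change ± SE of each of the 36 genes with CRS under the PBS pump (left), under the ACBP pump (middle) and averaged over both pumps (right), from edgeR. Filled points passed an adjusted p of 0.05: only Pdia6, Derl1 and Sec61a1 on the right, while 34 of 36 points there lie above 0.

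The ACBP pump alone, ACBP against PBS, changed none of the 36 genes in the edgeR test (0% of all genes called), with 4 at an unadjusted p under 0.05 (4.38% of all genes), and DESeq2 and limma voom called 0. Those 4 were Derl3 (1.91 ± 0.68), Dnajb11 (0.51 ± 0.22), Edem2 (0.28 ± 0.12) and Sdf2l1 (0.90 ± 0.39). The median log2 fold change was 0.23 and 32 of 36 were positive, against 51.3% of all genes. ACBP libraries lay wholly above PBS for Dnajb11, Pdia4, Os9 and Edem2, against 0.767% of all genes. Edem2, at 59.7, 62.2, 54.7, 55.9 and 63.6 CPM in ACBP against 50.4, 44.1, 44.98, 52 and 52.9 in PBS, had an adjusted p of 0.999. For Hspa5 the difference was 0.66 with a 95% interval of -0.09 to 1.41, and for Atf6 0.04 (-0.26 to 0.34). In restrained mice, CRS+ACBP against CRS had 0 called by edgeR (0% of all genes), by DESeq2 and by limma voom. By edgeR 1 gene had an unadjusted p under 0.05 (2.87% of all genes), Creld2 at 1.04 ± 0.38 (adjusted p = 1).

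Both models under the PBS pump were then set against each other. CDDP against CRS, which shares its libraries with the comparisons above, had 18 genes higher and 1 lower, against 19.5% and 15.1% of all genes (34.6% in either direction). Atf6 had the smallest p, with 28.98, 31.6, 36.5, 23.1 and 31.2 CPM in CRS and a log2 difference of 1.14 ± 0.15 (edgeR adjusted p = 2.3e-06). Dnajb9 (1.34 ± 0.32) and P4hb (0.64 ± 0.20) were the others whose CDDP libraries lay wholly above CRS, against 10.1% of all genes. Hspa5 differed by 1.198 ± 0.37 (adjusted p = 0.0124). Derl3 was the gene that was lower, at -2.69 ± 0.71 (adjusted p = 0.00425), with no overlap, against 9.14% of all genes. Pdia6 stood at 0.21 with a 95% interval of -0.37 to 0.78, and Calr at -0.24 (-0.80 to 0.31), so neither was shown to differ between the models.

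A fit of CDDP and CRS alone called 12 of the 36 and 25.1% of all genes, and without the 7 libraries rich in muscle or brain transcripts 11 and 28.3% were called. Leaving out 1 library gave 12 to 20, the lowest without CDDP replicate 4 or CRS replicate 1. Atf6, Dnajb9, Sec61a1, Derl3, Dnajb11, Dnajc3, P4hb, Hspa5, Xbp1 and Sec24d were called in all 10 of those fits. Herpud1 was lost without CDDP replicate 5 (adjusted p = 0.107), Eif2ak3 without CDDP replicate 4 (0.0704), and Canx without CDDP replicate 4 or CRS replicate 1 or 4 (up to 0.0635). Hyou1, Manf, Edem1, Edem2 and Spcs2 lost their calls without CDDP replicate 1, 3 or 4, without CRS replicate 1 and without some other CRS libraries, with an adjusted p of up to 0.156. Derl1 lost it without CDDP replicate 1 or 2 or CRS replicate 1 or 4 (up to 0.101).

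The order of the group means over all groups is given as a description. CDDP had the highest mean for 24 of the 36 genes, CRS+ACBP for 9, CDDP+ACBP for 2 and PBS for 1. PBS had the lowest mean for 29. The order was not computed over all genes, so these counts cannot be set against a share of them. For Hspa5 the means ran from 164 ± 34.2 CPM in PBS through 259 ± 51.8 in ACBP, 273 ± 97.5 in CRS, 368 ± 242 in CDDP+ACBP and 436 ± 284 in CRS+ACBP to 625 ± 172 in CDDP (SD, n = 5 each). Neighbours from ACBP upwards differ by less than the larger of their SDs, and PBS and ACBP overlap. For Atf6 the 5 groups other than CDDP all had means between 30.3 and 36.8 CPM, and CDDP 66.6 ± 9.17.

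Other genes of the pathway, from lists drawn up by function with earlier results of these data known, were read in the same fits. Counts over these lists are therefore a description. In CDDP against PBS, where 23.1% of all genes tested rose and 18.3% fell, 12 of 17 other folding and redox genes rose and 0 fell. Prkcsh, the glucosidase II beta subunit, changed by 1.35 ± 0.20, the glycoprotein folding sensor Uggt1 by 0.84 ± 0.16 and the oxidase Ero1l by 0.88 ± 0.18. Of 15 other genes of ER-associated degradation, 13 rose and 1, Rnf5, fell (-0.84 ± 0.20). The ubiquitin-conjugating enzyme Ube2g2 (2.53 ± 0.28), the VCP adaptor Selenos (2.15 ± 0.26) and the VCP cofactor Nploc4 (1.37 ± 0.19) had the smallest p. Among 19 other translocon and signal peptide genes, 16 rose and 1, Sec62, fell (-0.58 ± 0.20). Those with the smallest p belong to the signal recognition particle and its receptor, Srp19 (1.32 ± 0.16), Srpr (1.603 ± 0.20) and Srprb (1.31 ± 0.19).

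The oligosaccharyltransferase, which attaches N-glycans as proteins enter the ER, had 8 of 10 subunit genes higher and 1, Magt1, lower (-0.93 ± 0.27). Its catalytic subunits Stt3b and Stt3a changed by 1.299 ± 0.17 and 1.36 ± 0.21, and Dad1 by 1.398 ± 0.22. Of 23 ER-to-Golgi transport genes, 16 rose and 1, Sec24a, fell (-0.37 ± 0.14). Sec22b, a SNARE of these vesicles, changed by 1.75 ± 0.21, the COPI coat gene Copb2 by 1.45 ± 0.22 and the COPII GTPase gene Sar1a by 0.75 ± 0.13. All the genes named in these lists had an edgeR adjusted p of at most 0.0405. Over all genes tested, 23.1% rose and 18.3% fell.

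Of 13 tested genes among other sensors and stress transcription factors, 6 rose and 0 fell, against 23.1% and 18.3% of all genes. Those that rose were led by the signalling adaptor Nck1 (0.93 ± 0.19), the ATF6 paralogue Atf6b (1.005 ± 0.23) and Creb3l2 (1.14 ± 0.27). Atf4, the factor translated when eIF2α is phosphorylated, passed narrowly at 0.63 ± 0.25 (edgeR adjusted p = 0.045). Ddit3, which encodes the pro-apoptotic factor CHOP, was not called at -0.17 ± 0.20 (adjusted p = 0.52). Trib3 (0.58 ± 0.38), Chac1 (1.03 ± 0.43) and Ppp1r15a, the inducible eIF2α phosphatase partner (0.35 ± 0.30), were not called either.

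With ACBP added to CDDP, the interaction was lower for 8 of 17 other folding and redox genes, 10 of 15 other genes of ER-associated degradation and 13 of 19 other translocon and signal peptide genes. It was lower for 8 of 10 oligosaccharyltransferase genes, 12 of 23 ER-to-Golgi genes and 3 of 13 sensors and stress transcription factors, and higher for 0 in each list. Over all genes tested it was lower for 11.3% and higher for 8.38%. Sec22b (-1.65 ± 0.29), Ube2g2 (-2.24 ± 0.39) and Srp19 (-1.28 ± 0.22) had the smallest p of their lists. With CRS averaged over both pumps, 2 of 17 other folding and redox genes rose, Pdia5 (0.55 ± 0.11, edgeR adjusted p = 0.0109) and Fkbp11 (1.02 ± 0.23, adjusted p = 0.0286), and 0 genes of the other 5 lists were called. Over all genes tested, 0.417% were higher there and 0.687% were called in either direction.

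Libraries of the same group also differed together. With group means removed, the median Pearson r over pairs of chaperones and folding enzymes was 0.73 across the 30 libraries (105 pairs, 0.21 to 0.93), and 0.80 within the translocon subgroup (15 pairs). Pairs of a chaperone and a translocon gene had a median of 0.72. It was 0.23 within ER-associated degradation, 0.18 within sensors and signalling, 0.49 over all pairs of the 36 and 0.00 over all pairs of genes tested. These values are a description: the points share libraries, depth and scaling factors. Nearest to Hspa5 were Manf (0.93), Dnajb11 (0.86), Hyou1 (0.85) and Creld2 (0.85), and farthest were Ppp1r15b (-0.25) and Herpud1 (-0.10).

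**Figure D5:**
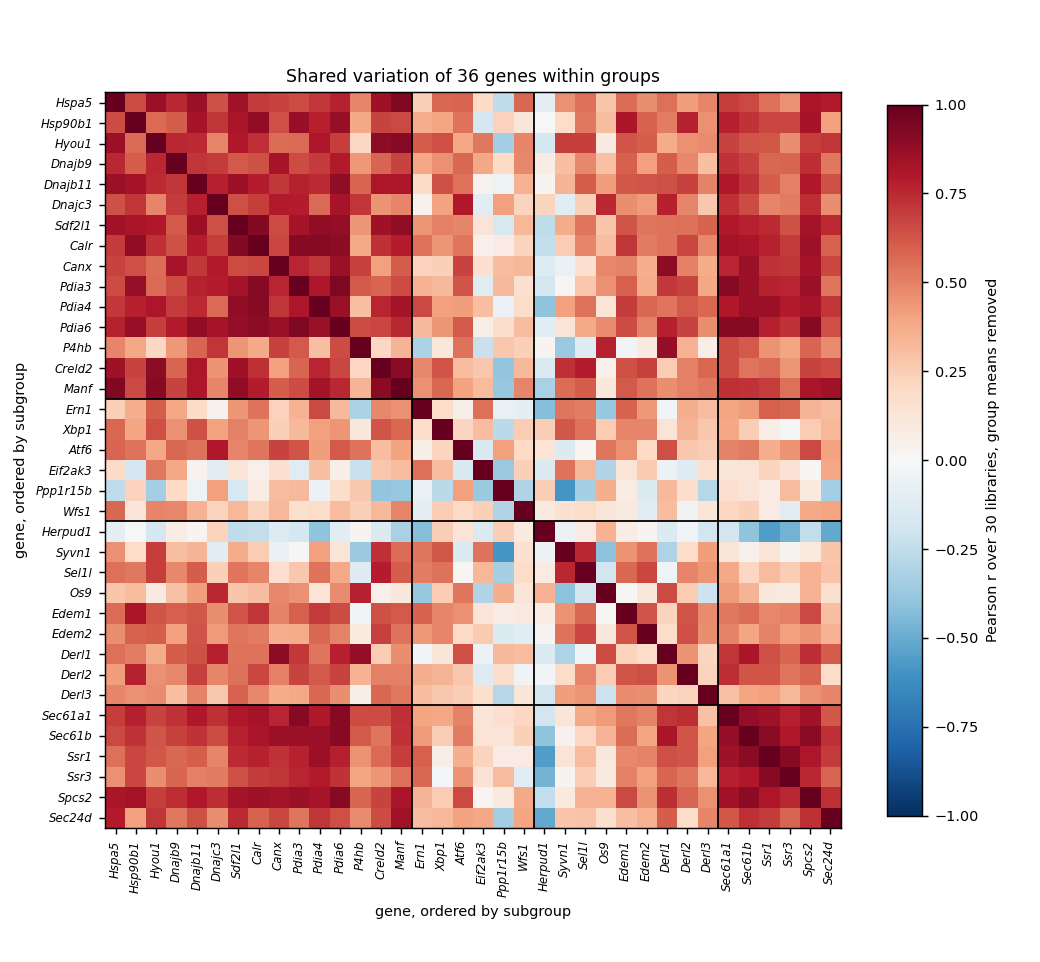
Pearson r of log2 CPM between each pair of the 36 genes (both axes, ordered by subgroup, lines between subgroups) over 30 libraries with group means removed; red is positive and blue negative. The blocks of chaperones and of translocon genes are mostly dark red (medians 0.73 and 0.80), while the rows of Ppp1r15b and Herpud1 are pale or blue.

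Some libraries stood apart from their group across whole subgroups. CRS+ACBP replicate 1 was the highest of its group for all 15 chaperones and folding enzymes and all 6 translocon genes, with a median deviation of 0.82 and 0.42 (log2) from the group mean. In CDDP, replicates 2 and 5 lay 0.64 and 0.62 below the group mean for the chaperones, and replicate 5 lay 0.95 below it for the translocon subgroup. In CDDP+ACBP, replicates 1 and 2 lay 0.49 above for the chaperones and replicate 3 lay 0.71 below.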

How the data were processed

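Liver mRNA of 30 libraries, 5 in each of 6 groups, was measured as read counts per gene. Per the submitters' processing notes, the authors used HISAT2 2.2.1 and HTSeq 2.0.3 with the mm10 build and deposited raw counts. Neither the annotation release nor the strand setting is stated there. The 5 summary lines of the table, a median of 62.0% of its reads, were left out, which leaves a median of 38.0% on genes. Counts of 1 group differed between libraries by far more than sampling noise (a chi-square per degree of freedom of at least 21.3 in PBS), so none was merged.

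The main test was edgeR 4.0.16 (TMM scaling, filterByExpr, quasi-likelihood F test, 6 group terms, 24 residual degrees of freedom) in R 4.3.3, fitted on all 16304 genes kept, with Benjamini-Hochberg adjustment over them in each of 11 comparisons and a threshold of 0.05. CPM use TMM library sizes. SE is the log2 fold change over the root of F, and intervals are 95%. Alternatives were DESeq2 1.42.0, limma 3.58.1 voom with quality weights, RLE scaling, other filters, the compared groups alone, and leaving out each library. The code was tested on simulated data. Positions come from GENCODE and promoters from RefSeq. Genes named with a value in each library were chosen by a rule on p-values and subgroup. The members, the pathway lists and the 11 marker lists were chosen with earlier results of these data known.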

Additional observations from a re-analysis of the deposited data

Results flagged for a closer look

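Of 216 sets of 5 libraries (36 genes in 6 groups), 10 had 1 library whose gap to the nearest other exceeded Dixon's 95% limit, and chance flags about 1 set in 20. CRS+ACBP replicate 1 was far above its group for Hspa5 (927.8 CPM), Manf (229.9), P4hb (1470) and Pdia6 (325.4). CDDP replicate 5 was far above its group for Herpud1 (1146 CPM) and far below it for Sec24d (28.24). The others were Sdf2l1, high in CRS replicate 3 (44.41 CPM), Wfs1, high in PBS replicate 2 (16.29), Eif2ak3, in ACBP replicate 4 (13.89), and Edem2, low in CRS replicate 1 (49.56).

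The change with CDDP differed between the pumps by the edgeR interaction test for 14 genes, all lower under ACBP. Over all genes tested, 19.7% were called in that test and 11.3% were lower. On the log2 scale the interaction was -1.43 for Hspa5, -1.80 for Dnajb9, -1.10 for Dnajb11, -1.29 for Dnajc3, -1.21 for Canx and -1.16 for P4hb. It was -1.04 for Xbp1, -1.08 for Atf6, -0.80 for Os9, -0.72 for Edem2 and -0.84 for Derl1, and -1.31 for Sec61a1, -0.83 for Ssr3 and -0.96 for Spcs2.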

How the results depend on the processing

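The counts of genes called among the 36 moved by over 1.5 times in these settings. In CRS against PBS edgeR called 0 (0.141% of all genes). DESeq2 called 1 there (0.514%), limma voom 10 (5.7%) and a fit of both groups alone 3 (1.78%). Fits of the compared groups alone called 7 in CDDP+ACBP against CDDP (18) and 12 in CDDP against CRS (19). Those fits called 15% and 25.1% of all genes, against 33.8% and 34.6% with all groups. Without the 7 libraries rich in muscle or brain transcripts, a limit chosen after seeing the data, CDDP against CRS had 11 (28.3%). For CRS averaged over both pumps (3, and 0.687% of all genes) there was 1 call with no filter on low counts (0.305%). DESeq2 gave 6 (2.27%), limma voom 19 (12.4%), the compared groups alone 11 (5.83%) and the fit without those 7 libraries 0 (0.181%). Leaving out 1 library gave 24 to 27 calls for CDDP against PBS, 12 to 20 for CDDP against CRS, 13 to 19 for CDDP+ACBP against CDDP, 10 to 18 for the interaction of CDDP and ACBP, 0 to 4 for CRS averaged, and 0 in the other 6 comparisons. With all libraries, the comparisons named there called 41.4%, 34.6%, 33.8%, 19.7% and 0.687% of all genes, in that order. The cause of these shifts in the counts was not tested. Over 29 results for single genes, 582 of 653 alternative values kept their direction and side of the threshold, 63 lost the call, 8 gained it and 0 reversed. No paired analysis was possible because the labels tie no library of one group to a library of another. Depth limits Derl3 most, with 0 to 37 reads in CDDP libraries.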
